A study of Homo sapiens with 6 samples.

Results

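The genes described here are 50 genes that act in mitosis, from entry into mitosis to the separation of the daughter cells, measured by RNA-seq in Ishikawa cells. Ishikawa is a human cell line from an endometrioid adenocarcinoma of the endometrium that responds to estrogen. They were listed by name for their known roles, by a rule that uses no measured value, though earlier results of these data were known. All 50 were found among the 26364 genes of the count table. All 50 were also among the 15611 genes with enough counts to be tested, so no gene of the set was lost to the filter on low counts.

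The study asked how loss of ETV4, an ETS family transcription factor, alters gene expression in these cells, and it compared 3 lines. They were the parental Ishikawa line (labelled wild type), ETV4 KO clone 1 and ETV4 KO clone 2. Each line gave 1 library after vehicle (0.1% DMSO) and 1 after 10 nM E2 (17β-estradiol), so the 4 groups hold 1 parental or 2 clone libraries each. Cells of all 6 libraries had spent 5 days in medium depleted of hormones before treatment. The treatment lasted 8 h per the protocol and 1 h per the sample characteristics, and the labels do not settle which is right. Each knockout line is a single clone and the parental line has no replicate, so a difference between lines and an effect of the knockout cannot be told apart there. Nothing in the labels says that libraries of a group came from separate experiments, so p-values measure the spread between these libraries only.

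Most mitotic genes are switched on late in the cell cycle and are nearly silent in resting cells, which makes their RNA a common readout of proliferation in a population. Cyclin B and the kinase CDK1 drive entry into mitosis, and the spindle checkpoint holds cells back until every kinetochore is attached to microtubules. The anaphase promoting complex with its activator CDC20 then marks securin and cyclin B for destruction, which frees separase to cut the cohesin between sister chromatids. In the endometrium, estrogen is known as a hormone that drives proliferation of the epithelium.

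Library totals ran from 28037392 to 36829479 counts. Levels are given as CPM (counts scaled to library size with TMM factors, which corrects library totals for differences in composition). The parental DMSO library had a TMM factor of 0.899, against 1.01 to 1.04 for the others. ETV4 counted 586 and 1063 reads in the parental DMSO and E2 libraries and 71 to 122 in the clones. All 8 epithelial markers listed for the check of cell type were above 10 CPM in every library and summed to 3009 to 3940 CPM. The 4 endothelial markers summed to at most 4.55 CPM and the 5 leukocyte markers to at most 5.61 CPM, with CD3E at 0 in every library. Of 6 fibroblast markers only COL1A1 exceeded 10 CPM in every library.

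Promoters of late cell cycle genes are known to carry CCAAT boxes, bound by NF-Y, and a cell cycle homology region (CHR), through which the DREAM and MuvB complexes act. Promoter windows of 300 bases, from 250 bases before to 50 bases after the start, were taken from RefSeq (GRCh38.p14) for the 43 members with an entry. They gave 55 windows, since some genes have several starts. On both strands, the motif CCAAT was found in 39 of 55 windows (70.9%), against 34.6% of all 35116 windows in the table. A CHR, searched as TTTGAA or TTCGAA, was found in 37 of 55 (67.3%), against 16.4% of all windows. Both motifs together were in 29 windows (52.7%), against 6.38% of all windows. The 2 CHR forms were counted together, and CCAAT on opposite strands may share bases. A few windows are shown with these motifs in capitals, because their genes stand at opposite ends of the E2 response in the parental line or, for PLK1, near its middle.
CCNB2, chr15:59104896-59105195, plus strand: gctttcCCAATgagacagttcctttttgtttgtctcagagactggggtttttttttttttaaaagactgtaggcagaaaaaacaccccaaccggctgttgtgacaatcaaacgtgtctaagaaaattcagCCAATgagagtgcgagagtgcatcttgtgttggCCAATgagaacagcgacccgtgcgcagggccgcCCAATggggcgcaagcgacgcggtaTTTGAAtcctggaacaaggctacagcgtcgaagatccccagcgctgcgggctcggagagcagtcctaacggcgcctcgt
HMMR, chr5:163460382-163460681, plus strand: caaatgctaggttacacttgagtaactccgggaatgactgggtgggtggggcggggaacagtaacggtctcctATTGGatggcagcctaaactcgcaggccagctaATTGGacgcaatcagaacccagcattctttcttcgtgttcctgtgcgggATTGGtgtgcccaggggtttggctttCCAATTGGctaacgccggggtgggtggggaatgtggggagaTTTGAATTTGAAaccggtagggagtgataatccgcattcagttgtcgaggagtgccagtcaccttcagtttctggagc
PLK1, chr16:23678639-23678938, plus strand: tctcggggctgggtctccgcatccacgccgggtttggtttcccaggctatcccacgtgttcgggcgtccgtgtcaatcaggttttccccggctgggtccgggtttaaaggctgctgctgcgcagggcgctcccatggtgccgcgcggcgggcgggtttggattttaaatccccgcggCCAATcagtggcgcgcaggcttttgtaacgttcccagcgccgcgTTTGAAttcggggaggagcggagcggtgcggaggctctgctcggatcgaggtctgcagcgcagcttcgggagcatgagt
MKI67, chr10:128126374-128126673, minus strand: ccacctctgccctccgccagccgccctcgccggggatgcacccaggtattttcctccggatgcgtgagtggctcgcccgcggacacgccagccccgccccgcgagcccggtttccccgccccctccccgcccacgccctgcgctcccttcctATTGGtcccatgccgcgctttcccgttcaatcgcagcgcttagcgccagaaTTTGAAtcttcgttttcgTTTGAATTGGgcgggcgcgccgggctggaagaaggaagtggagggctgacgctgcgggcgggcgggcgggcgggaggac
CENPF, chr1:214602945-214603244, plus strand: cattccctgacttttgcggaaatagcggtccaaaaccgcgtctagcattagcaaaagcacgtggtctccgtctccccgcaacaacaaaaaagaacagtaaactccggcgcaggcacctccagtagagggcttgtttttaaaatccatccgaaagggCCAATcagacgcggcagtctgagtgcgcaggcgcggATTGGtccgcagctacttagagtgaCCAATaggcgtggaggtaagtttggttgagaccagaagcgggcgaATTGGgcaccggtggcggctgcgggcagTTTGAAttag

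In CCNB2 the CHR began 29 bases before the start, with CCAAT boxes 54, 87, 120 and 244 bases before it. PLK1 also had its CHR 29 bases before the start, with 1 CCAAT box at 73 bases. HMMR held CHR matches at 28 and 22 bases before the start, and its CCAAT matches at 69 and 66 bases overlap on opposite strands. MKI67 held CHR matches at 47 and 29 bases before the start. CENPF held its only CHR match 40 bases past the start.

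The parental DMSO library held the most RNA of these genes. Their summed level was 11480 CPM there and 9521 CPM in the parental E2 library. Clone 1 had 8568 CPM in DMSO and 7920 CPM in E2, and clone 2 had 8778 and 8303 CPM. These sums depend on the TMM factors. As a share of plain counts, the 50 genes made up 1.03% of the parental DMSO library and 0.967% of the parental E2 library. The shares in DMSO and E2 were 0.864% and 0.798% in clone 1, and 0.917% and 0.856% in clone 2. In such bulk samples, fewer cells late in the cell cycle and less RNA of these genes per cell cannot be told apart. Short genes in general were also higher in the parental DMSO library. The 2809 tested genes with transcripts of 850 to 1948 bases had a median log2 difference between E2 and DMSO of −0.35 in parental cells. For clones 1 and 2 against parental cells in DMSO it was −0.21 and −0.36. How far this shift carries the level of the 50 genes was not tested. Parental DMSO was the highest of the 6 libraries for 33 of 50 genes, against 31.7% of all genes tested, and the lowest for 4, against 32.2%.

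**Figure D1:**
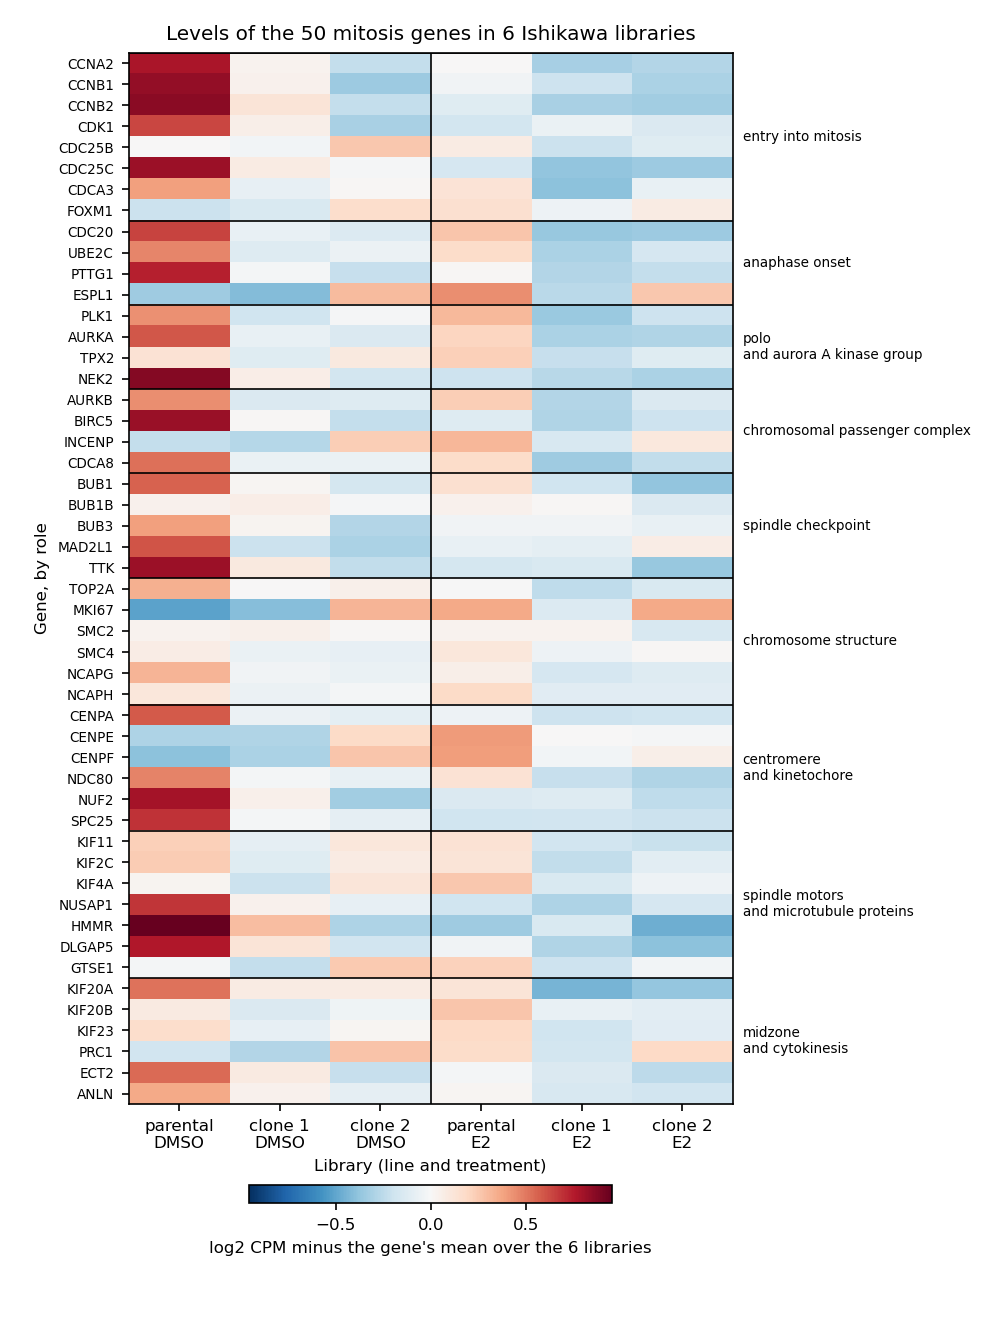
Each row is 1 of the 50 mitosis genes, grouped by role, and each column is 1 library; colour is log2 CPM minus the mean of that gene over the 6 libraries. Most rows are red in the parental DMSO column, while some, among them CENPE, CENPF, ESPL1, FOXM1, INCENP, MKI67 and PRC1, are blue there and red in the parental E2 column.

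Compared per length of transcript, the cyclin B1 gene CCNB1 had the highest mean level, at 220 CPM per kb, followed by the microtubule protein gene NUSAP1 at 177 CPM per kb. The separase gene ESPL1 had the lowest, at 12.1 CPM per kb. The smallest count of any of the 50 genes in any library was 632, so no level rests on few reads.

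The first comparison was between the clones and parental cells. In DMSO, both clones were below parental cells for 38 of 50 genes (39.2% of all genes) and above them for 4 (42% of all genes), MKI67, CENPE, CENPF and FOXM1. For 17 of the 50 both clones were at least 1.5-fold lower (5.56% of all genes), and for 0 at least 1.5-fold higher (10.1%). The median difference on the log2 CPM scale was −0.46 for clone 1 and −0.48 for clone 2, with 0.01 and 0.02 over all genes. In E2 both clones were lower for 41 of 50 genes (32.2% of all genes) and higher for 1, CDK1 (35.6%). CDC20 alone was at least 1.5-fold lower in both (1 of 50, against 2.75% of all genes), and 0 were at least 1.5-fold higher (3.89%). The medians in E2 were −0.29 for clone 1 and −0.22 for clone 2, with 0.00 and 0.02 over all genes. A correction for each library's trend with GC content and length, partial over the 50 genes, gave medians of −0.35 in DMSO and −0.34 in E2 for clone 1. For clone 2 they were −0.22 and −0.23.

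CDC20, the activator of the anaphase promoting complex, had the most negative fitted difference of the 50. It stood at 310 CPM in the parental DMSO library against 190 and 182 CPM in clones 1 and 2, and at 239 CPM against 155 and 157 CPM in E2. Both parental libraries were above all 4 clone libraries. Aurora kinase A, encoded by AURKA, had 109 CPM against 69.0 and 65.7 CPM in DMSO and 83.2 against 58.6 and 59.2 CPM in E2. The polo kinase gene PLK1 had 164 against 107 and 121 CPM in DMSO and 151 against 95.3 and 106 CPM in E2. For these kinase genes too the parental and clone libraries did not overlap. CDC20 and AURKA were described after their values were seen, and the share of all genes with such a separation was not counted.

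In edgeR's quasi-likelihood test over all 6 libraries, 0 of 50 genes passed an adjusted p of 0.05 for the knockout effect, and 0.327% of all genes did. The unadjusted p was under 0.05 for 22 of the 50 and for 1787 of all 15611 genes. The fitted log2 change was below 0 for 47 of 50 and ran from −0.68 to 0.13. CDC20 had −0.68 (SE 0.12, adjusted p = 0.102), AURKA −0.60 (SE 0.11, adjusted p = 0.127) and PLK1 −0.56 (SE 0.12, adjusted p = 0.182). CCNB1 had −0.61 (SE 0.21, adjusted p = 0.365) and MKI67 0.13 (SE 0.28, adjusted p = 0.847). With line as a random effect, limma called 0 of the 50 and 0.295% of all genes. DESeq2 called 9 of the 50, against 2.95% of all genes, and 9 lower in the clones, against 1.02%. They were CDC20, AURKA, PLK1, CDCA8, KIF20A, AURKB, BUB1, UBE2C and NDC80. Fits without a clone leave 1 library in each group and 1 residual degree of freedom. Their p-values use a spread estimated over all genes together. Without clone 2, edgeR called 4 of the 50 (6.41% of all genes), all lower in the clones (2.28%), namely CDC20, AURKA, PLK1 and AURKB. Without clone 1 it called 0 of the 50, with 631 genes called in all, and CDC20 had an adjusted p of 0.327, AURKA of 0.347 and PLK1 of 0.550. With a correction for GC content and length, described with the length trend, it called CDC20 alone (0.769% of all genes, 0.372% lower in the clones).

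The second comparison was between E2 and DMSO within each line. In parental cells 35 of 50 genes were lower in E2, with a median log2 difference of −0.34. In clone 1 the count was 38 and the median −0.16, and in clone 2 the count was 42 and the median −0.12. Over all genes the medians were 0.00, −0.00 and 0.01. DMSO exceeded E2 by 1.5-fold or more for 16 of 50 genes in parental cells, against 18.8% of all genes, and E2 exceeded DMSO by as much for 4 (MKI67, CENPE, CENPF and ESPL1), against 21.5%. In neither clone did a member differ by 1.5-fold or more in either direction. Over all genes, 6.93% and 7.48% were at least that much lower in clones 1 and 2, and 9.73% and 9.12% higher. The difference in parental cells was larger in size than in both clones for 37 of 50 genes, against 64.8% of all genes. Lower in E2 in all 3 were 29 of 50, against 25.1% of all genes, and higher in all 3 were 2 of 50, MKI67 and SMC4, against 27.8%.

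**Figure D2:**
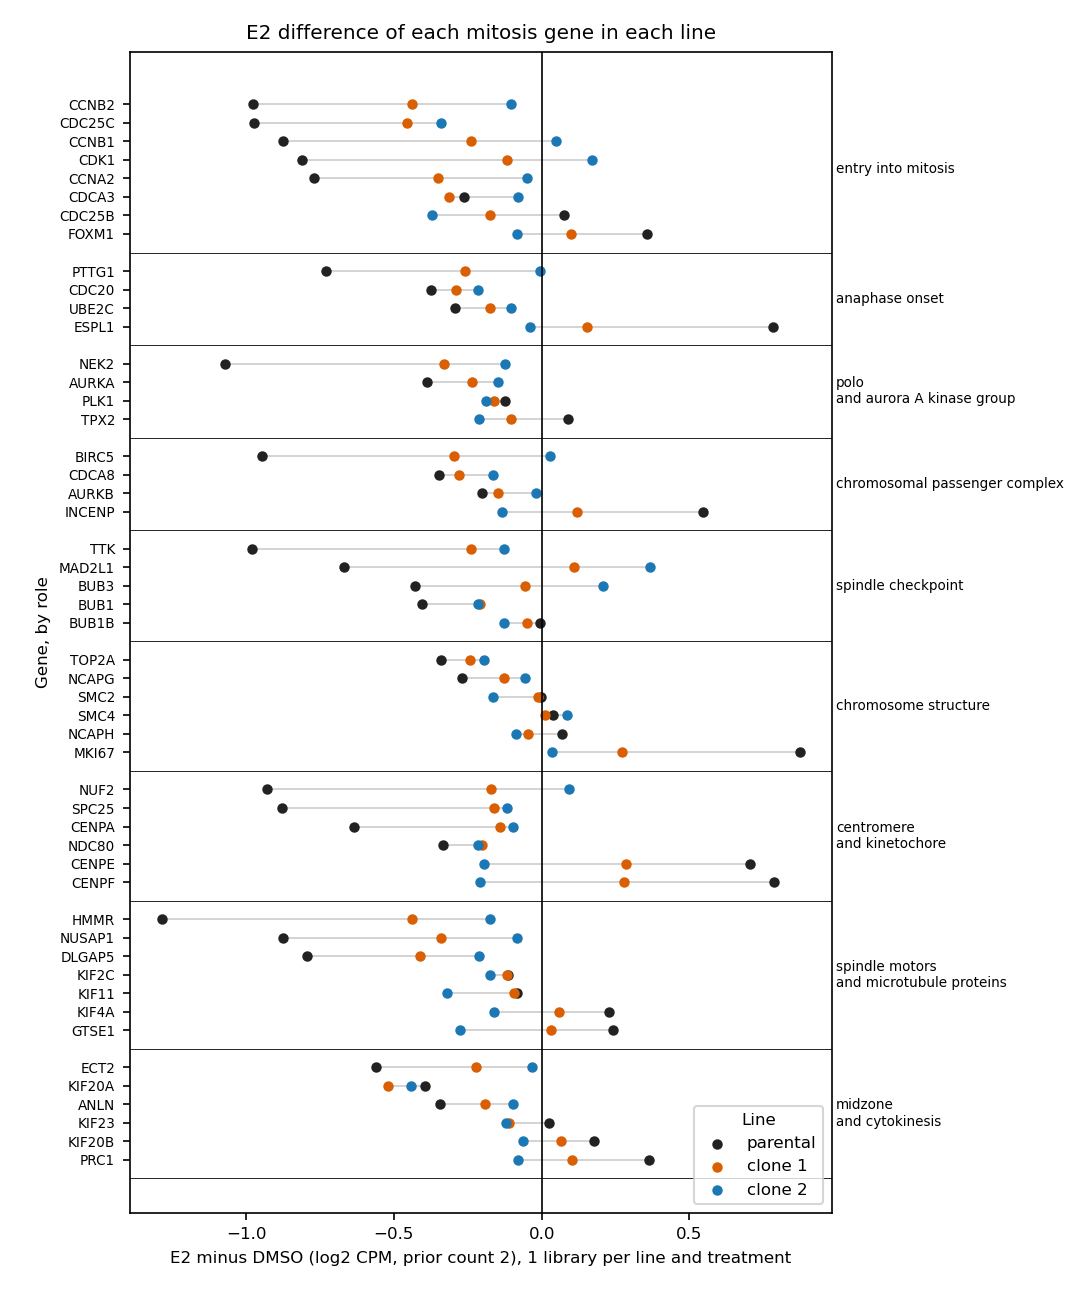
Each row is a mitosis gene, grouped by role, and the points give E2 minus DMSO in log2 CPM for parental cells, clone 1 and clone 2, from 1 library per line and treatment. The parental points spread from −1.29 (HMMR) to 0.87 (MKI67), and for 37 of 50 genes the points of both clones lie closer to 0 than the parental point.

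Among the genes for entry into mitosis, the cyclin and CDK1 genes were lower in the parental E2 library. CCNB1 had 817 CPM with DMSO and 445 CPM with E2 in parental cells, 470 and 398 CPM in clone 1, and 358 and 370 CPM in clone 2. CDK1, its kinase partner, stood at 409 and 233 CPM in parental cells, 273 and 252 CPM in clone 1, and 212 and 239 CPM in clone 2. For both genes parental DMSO was the highest library and the parental E2 level lay within the range of the clones. CDC25C, a phosphatase that activates CDK1, was lower in E2 in all 3 lines, with 49.5 and 25.2 CPM in parental cells, 29.7 and 21.7 CPM in clone 1, and 28.0 and 22.1 CPM in clone 2. FOXM1, a transcription factor for late cell cycle genes, was higher with E2 in parental cells, at 221 and 284 CPM. It had 231 and 247 CPM in clone 1, and 286 and 270 CPM in clone 2. Over the 8 genes of this group the median parental difference was −0.79.

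In the polo and aurora A kinase group, NEK2, a centrosomal kinase, stood at 178 and 84.5 CPM in parental cells, 101 and 80.7 CPM in clone 1, and 85.8 and 78.8 CPM in clone 2. TPX2, which activates aurora A on the spindle, stood at 255 and 271 CPM in parental cells, 214 and 199 CPM in clone 1, and 248 and 214 CPM in clone 2. PLK1 had log2 differences between E2 and DMSO of −0.12 in parental cells, −0.16 in clone 1 and −0.19 in clone 2. The group thus held genes with a large and with a small difference in parental cells.

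The 5 spindle checkpoint genes were all lower in the parental E2 library, with differences from −0.98 to −0.01. TTK, the checkpoint kinase also named MPS1, stood at 186 and 94.4 CPM in parental cells, 113 and 95.6 CPM in clone 1, and 89.8 and 82.2 CPM in clone 2. MAD2L1, whose product holds CDC20 inactive, was the only member lower in parental E2 and higher in E2 in both clones. It stood at 259 and 162 CPM in parental cells, 148 and 159 CPM in clone 1, and 138 and 179 CPM in clone 2. BUB3, which recruits checkpoint proteins to kinetochores, had 430 and 320 CPM in parental cells, 333 and 320 CPM in clone 1, and 270 and 312 CPM in clone 2. BUB1B, part of the inhibitor of the anaphase promoting complex, lay between 129 and 148 CPM in all 6 libraries.

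At anaphase onset, PTTG1 (securin) and ESPL1 (separase) differed in opposite directions in parental cells. By transcript length, PTTG1 is among the 10 shortest of the 50 genes and ESPL1 among the 10 longest. All tested genes of those lengths had parental medians of −0.35 and 0.29. PTTG1 stood at 192 and 116 CPM in parental cells, 113 and 94.7 CPM in clone 1, and 98.5 and 98.1 CPM in clone 2. ESPL1 stood at 61.7 and 106 CPM in parental cells, 58.7 and 65.3 CPM in clone 1, and 96.0 and 93.3 CPM in clone 2. Reads of PTTG1 may be split with near-identical retrocopies, so its level is uncertain.

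The kinetochore genes differed in direction among themselves. SPC25, a subunit of the NDC80 complex that grips microtubules, stood at 66.5 and 36.2 CPM in parental cells, 40.7 and 36.4 CPM in clone 1, and 39.0 and 35.9 CPM in clone 2. CENPF, a large coiled-coil protein of the outer kinetochore, stood at 240 and 415 CPM in parental cells, 255 and 309 CPM in clone 1, and 377 and 326 CPM in clone 2. The kinesin gene CENPE followed CENPF in parental cells, with 93.7 and 153 CPM. In the chromosomal passenger complex, which carries aurora B, BIRC5 (survivin) stood at 405 and 210 CPM in parental cells, 230 and 187 CPM in clone 1, and 195 and 199 CPM in clone 2. INCENP, the scaffold of that complex, stood at 75.6 and 110 CPM in parental cells, 73.4 and 79.7 CPM in clone 1, and 105 and 95.2 CPM in clone 2. Subunits of 1 complex therefore differed in direction in parental cells.

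Among the spindle motors and microtubule proteins, HMMR, a spindle protein, had the most negative parental difference of all 50 genes, at −1.29. It stood at 160 and 65.4 CPM in parental cells, 101 and 74.5 CPM in clone 1, and 67.4 and 59.7 CPM in clone 2. The chromokinesin KIF4A, which has a near-identical retrogene, stood at 99.6 and 117 CPM in parental cells, 85.1 and 88.6 CPM in clone 1, and 106 and 94.6 CPM in clone 2. At the midzone, KIF20A, a kinesin needed for cytokinesis, stood at 226 and 172 CPM in parental cells, 167 and 116 CPM in clone 1, and 167 and 122 CPM in clone 2. Its DMSO level was above its E2 level in every line. PRC1, which bundles midzone microtubules, stood at 150 and 192 CPM in parental cells, 140 and 151 CPM in clone 1, and 205 and 194 CPM in clone 2.

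Among the genes of chromosome structure, MKI67, the Ki-67 antigen that coats mitotic chromosomes, was higher with E2 in all 3 lines. It had 431 and 789 CPM in parental cells, 465 and 561 CPM in clone 1, and 768 and 786 CPM in clone 2. Its level in clone 2 was thus close to the parental E2 level in both treatments. TOP2A, the topoisomerase that untangles chromatids, stood at 768 and 606 CPM in parental cells, 608 and 513 CPM in clone 1, and 627 and 548 CPM in clone 2. The condensin genes SMC2, SMC4, NCAPG and NCAPH differed by −0.27 to 0.08 on the log2 scale in every line.

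**Figure D3:**
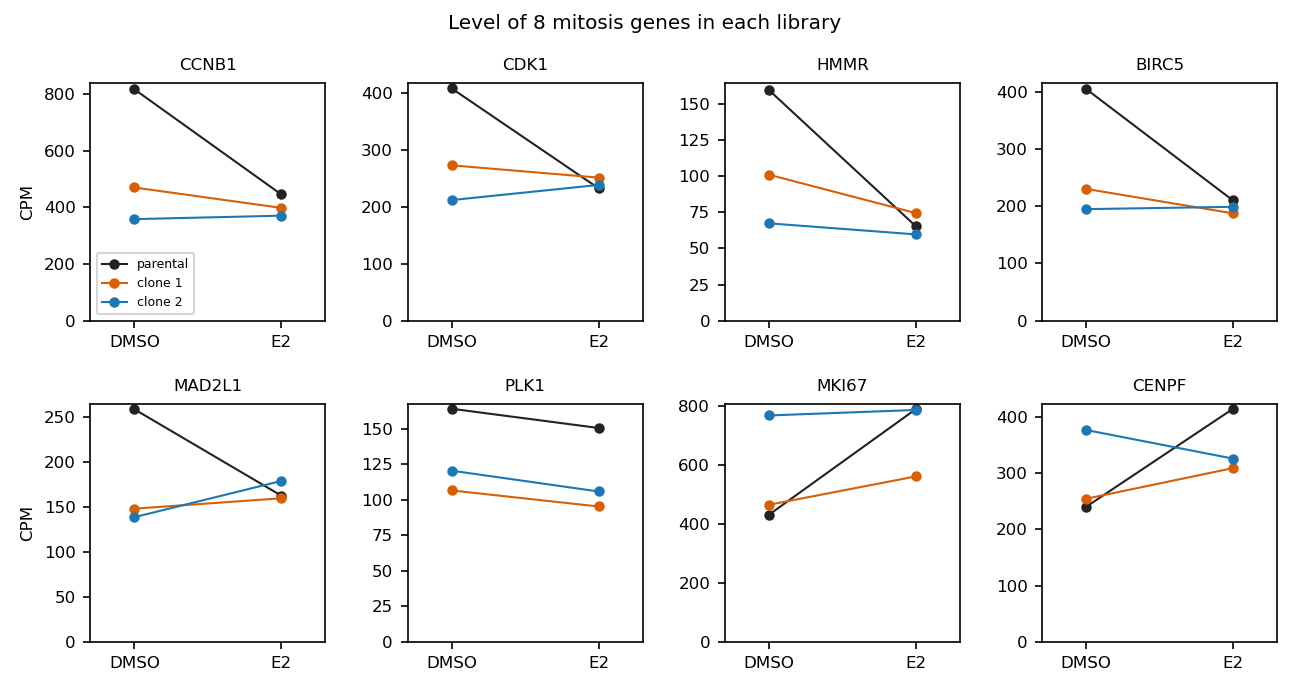
CPM in DMSO and E2 for 8 mitosis genes, with 1 line per cell line and 1 library per point; each vertical axis starts at 0. CCNB1, CDK1, HMMR and BIRC5 were highest in the parental DMSO library and close together in the 3 E2 libraries, while MKI67 and CENPF were lowest in the parental DMSO library.

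For the E2 effect over the 3 lines, edgeR's quasi-likelihood test called 0 of 50 genes, and 1.13% of all genes. The unadjusted p was under 0.05 for 10 of the 50 and for 3180 of all 15611 genes. The fitted change was below 0 for 40 of the 50, with a median of −0.20 against −0.02 over all genes. KIF20A had a fitted log2 change of −0.45 (SE 0.11, adjusted p = 0.127) and CDC25C −0.59 (SE 0.15, adjusted p = 0.133). HMMR had −0.65 (SE 0.25, adjusted p = 0.224), CCNB1 −0.36 (SE 0.20, adjusted p = 0.346), CDK1 −0.26 (SE 0.21, adjusted p = 0.485), PLK1 −0.16 (SE 0.12, adjusted p = 0.460) and MKI67 0.38 (SE 0.27, adjusted p = 0.434). With line as a replicate block the count stayed at 0 of 50, with 2.46% of all genes called. DESeq2 called 2 of the 50, KIF20A and CDC25C, against 7.14% of all genes and 2.28% in the lower direction. Here too, fits without a clone have 1 residual degree of freedom, so their p-values use a spread estimated over all genes together. Without clone 1, edgeR called 0 of the 50, with 745 genes called in all. Without clone 2, it called 12 of the 50, against 21.6% of all genes. Of these, 11 were lower in E2 (8.88% of all genes) and 1 higher (12.7%). They were HMMR, NEK2, CDC25C, CCNB2, NUSAP1, BIRC5, TTK, DLGAP5, CCNA2, NUF2 and SPC25 in the lower direction and MKI67 in the higher.

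In the 4 clone libraries alone, 0 of 50 genes were called, against 0.329% of all genes. An unadjusted p under 0.05 was found for 2 of the 50 and for 1295 of all 14881 genes. With the clone as a replicate block, KIF20A fell in E2 by 0.49 on the log2 scale (SE 0.14, adjusted p = 0.00791) and CDC25C fell by 0.41 (SE 0.13, adjusted p = 0.0145). That is 2 of 50, where 15% of all genes were called and 6.42% were called lower. With the GC and length correction added, 6 of 50 were called, all lower, where 23.3% of all genes were called and 10.7% were called lower. The blocked fit has 1 residual degree of freedom, so its p-values use a spread estimated over all genes together.

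Whether the E2 change differed between the clones and parental cells was tested as an interaction of E2 with genotype. Without the block, 0 of 50 genes were called and 0% of all genes. The unadjusted p was under 0.05 for 9 of the 50 and for 1190 of all 15611 genes, and DESeq2 also called 0 of the 50. With line as a replicate block, 14 of 50 were called, against 15.8% of all genes. Of these, 10 had a more positive E2 change in the clones, against 8.9% of all genes, and 4 a more negative one, against 6.92%. This blocked fit also has 1 residual degree of freedom, and its parental side rests on 1 pair of libraries.

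The 10 genes with a more positive change were lower in E2 in parental cells and nearer to no difference in the clones. They were HMMR, MAD2L1, NUF2, NEK2, CDK1, BIRC5, TTK, CCNB1, SPC25 and CCNB2. HMMR had the largest difference, at 0.98 (SE 0.23, adjusted p = 0.00106), followed by MAD2L1 at 0.91 (SE 0.25, adjusted p = 0.00516). CCNB2, which encodes cyclin B2, had the smallest, at 0.70 (SE 0.25, adjusted p = 0.0395). The 4 genes with a more negative change were higher in E2 in parental cells. They were CENPF at −0.75 (SE 0.26, adjusted p = 0.0294), ESPL1 at −0.73 (SE 0.23, adjusted p = 0.0164), MKI67 at −0.72 (SE 0.26, adjusted p = 0.0434) and CENPE at −0.66 (SE 0.24, adjusted p = 0.0456). Of the first set, 8 genes had a promoter entry (BIRC5 and TTK had none), and of their 9 windows 7 held a CHR and 8 a CCAAT box. Of the 4 windows of the second set, 3 held a CHR and 3 a CCAAT box. Of the 42 windows of the other members, 27 held a CHR and 28 a CCAAT box.

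**Figure D4:**
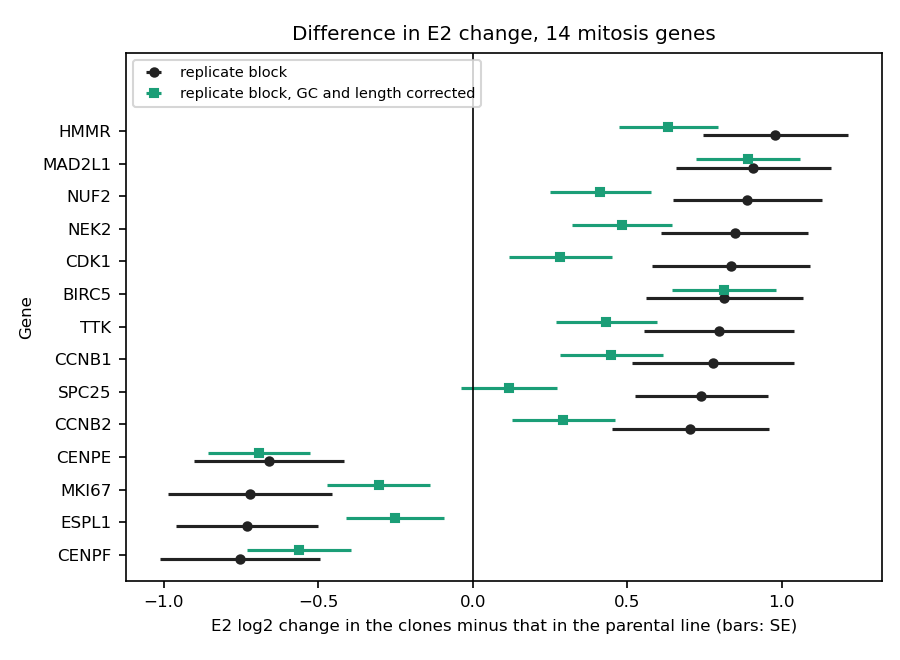
For the 14 mitosis genes called with the replicate block, points give the E2 log2 change in the clones minus that in parental cells and bars give the SE, without (circles) and with (squares) correction for GC content and transcript length. HMMR moved from 0.98 to 0.63 and SPC25 from 0.74 to 0.12 with the correction, while BIRC5 stayed at 0.81.

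These differences ran along transcript length. The coding transcripts of the 50 genes (GENCODE v29) were 850 to 12678 bases long. Across the 50 genes, Spearman's rho between length and the E2 difference was 0.58 in parental cells, 0.61 in clone 1 and −0.05 in clone 2. Across all 13445 tested genes with a length it was 0.33, 0.24 and −0.09. With the GC content of the transcript, rho was 0.28 over the 50 genes and 0.34 over all genes in parental cells. Genes within a library are not independent replicates and share its depth and composition, so these values are a description. The 10 shortest genes, of 850 to 1948 bases, were all lower in parental E2 with a median of −0.68, and all 2809 tested genes of those lengths had a median of −0.35. The 10 longest, of 5468 to 12678 bases, had a median of 0.11, with 6 higher and 4 lower, and the 2382 genes of those lengths had 0.29. All 4 members at least 1.5-fold higher in parental E2 (MKI67, CENPE, CENPF and ESPL1) were among these 10. MAD2L1 and BUB3 were lower in parental E2 although their assigned transcripts are among the 10 longest. Which transcript forms these cells express was not tested.

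The same trend stood between the clones and parental cells in DMSO, with rho of 0.68 for clone 1 and 0.62 for clone 2 over the 50 genes, but in E2 rho was −0.04 and 0.06. In E2 the difference of clone 1 ran with GC content instead, at −0.62 over the 50 genes and −0.30 over all. These comparisons share the parental DMSO library with the E2 difference of parental cells. After correction for each library's trend with GC content and length, the median E2 difference was −0.18 in parental cells. It was −0.11 in clone 1 and −0.14 in clone 2. The correction was partial over the 50 genes. Their rho between length and the E2 difference became 0.30 in parental cells, 0.25 in clone 1 and 0.06 in clone 2. Between the clones and parental cells in DMSO it became 0.35 for clone 1 and 0.30 for clone 2. Over all genes, rho in parental cells became −0.01 with length and 0.17 with GC content. With the correction and the replicate block together, 7 of 50 genes were called for the interaction, against 11.4% of all genes. In the positive direction 5 were called, against 6.18% of all genes, and in the negative direction 2, against 5.24%. They were BIRC5 at 0.81 (SE 0.17, adjusted p = 7.12e-05), MAD2L1 at 0.89 (SE 0.17, adjusted p = 9.17e-06), BUB3 at 0.65, HMMR at 0.63 and NEK2 at 0.48, and, in the negative direction, CENPE at −0.69 and CENPF at −0.56. For the E2 effect, the same fit called KIF20A, CDC25C and DLGAP5, all lower in E2, against 11.4% of all genes and 4.61% in the lower direction.

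**Figure D5:**
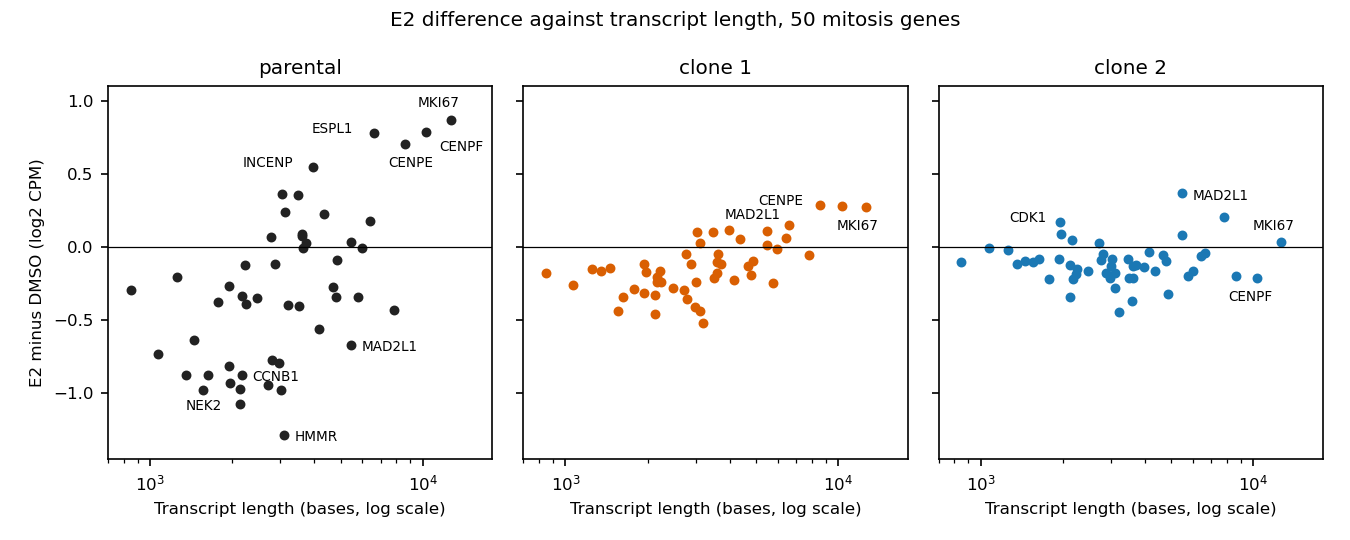
E2 minus DMSO in log2 CPM for each of the 50 mitosis genes against transcript length on a log scale, in 1 panel per line. The points climb with length in parental cells and in clone 1, and they do not in clone 2.

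A wider list of 92 other mitosis genes, of which 91 were tested, was examined for the same effects. Their median E2 difference was −0.14 in parental cells, with 54 lower and 37 higher, −0.05 in clone 1 and −0.02 in clone 2. None of the 91 was called by edgeR without the block in any of the 4 tests. With the block, the clones alone called 5 of the 91 genes, against 15% of all genes. Of these, 4 were higher in E2, against 1271 of all 14881 genes, and 1 was lower, against 6.42% of all genes. The kinetochore gene CENPT rose by 0.42 (SE 0.13, adjusted p = 0.0122), MAD1L1, a checkpoint gene, rose by 0.43 (SE 0.14, adjusted p = 0.0187), and MAD2L2 fell by 0.35 (SE 0.13, adjusted p = 0.0417). The blocked interaction was called for 15 of the 91 in the positive direction, against 8.9% of all genes, and for 3 in the negative, against 6.92%. With the GC and length correction added, the counts were 6 in each direction, against 6.18% and 5.24% of all genes. The following values are without that correction. CKS2, which binds CDK1, had 1.09 (SE 0.26, adjusted p = 0.00109), and NSL1, a kinetochore subunit, had 1.00 (SE 0.23, adjusted p = 0.000896). The kinesin gene KIF18B had −0.74 (SE 0.23, adjusted p = 0.0148) and the cohesin gene SMC1A −0.70 (SE 0.26, adjusted p = 0.0452).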

How the data were processed

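Poly(A)-selected RNA of 6 libraries was sequenced after preparation with a stranded kit, per the labels' protocols. The authors deposited whole-number raw counts per gene symbol. HISAT2, SAMtools, Subread, DESeq2 and the build hg19 are named in the submitters' processing notes. Versions, annotation and use of strand in counting are not given in the sources used here, so reads of overlapping or antisense genes may not be told apart. DMOS in column names was taken as DMSO, and ER as E2.

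Tests used edgeR 4.0.16 in R 4.3.3 (filterByExpr, TMM, quasi-likelihood test, Benjamini-Hochberg adjustment over all genes tested, threshold 0.05). This kept 15611 of 26364 genes, and 14881 for the clones alone. The E2 and knockout effects came from 1 model with genotype and treatment. A prior count of 2 entered log2 differences of single libraries. Alternatives were DESeq2 1.42.0, other scalings, no filter, libraries left out in turn, and line as a replicate block (for the knockout, a random effect in limma 3.58.1). Pairing comes from the labels, as both libraries of a number are from the same line. Differences between the clones correlated across treatments with r = 0.63 over 15611 genes. Taking out each library's lowess trend (span 0.3) with GC content and length was added after seeing the data. Lengths came from GENCODE v29, for 50 of 50 members and 86.1% of tested genes. Each gene was given the coding transcript of the basic set with the longest coding sequence, and ties went to the longest transcript. The correction uses these lengths, which may not be those of the forms expressed. The fits were tried on simulated counts with the same dispersion for every gene and no line, GC or length effect. The condition they had to meet did not cover the interaction.

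The 50 genes, the lists and the tests were chosen with earlier results of these data known. All 50 could be named. Values in every library are given for the genes with the most positive and the most negative fitted E2 change of each role group and for CCNB1, CDK1, PLK1, FOXM1, MKI67, TOP2A and BUB3. From the wider lists, those with the largest called changes in each direction are named. CDC20, AURKA, MAD2L1 and CENPE were described after their values were seen. The second deposited table, of normalized values, was not used here.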

Additional observations from a re-analysis of the deposited data

Results flagged for a closer look

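Of the 50 mitosis genes, 14 differed in their E2 change between the clones and the parental line by the interaction test of edgeR with the replicate block. On the log2 scale, the E2 change in the clones minus that in the parental line was 0.98 for HMMR, 0.91 for MAD2L1, 0.89 for NUF2, 0.85 for NEK2, 0.84 for CDK1, 0.81 for BIRC5, 0.80 for TTK, 0.78 for CCNB1, 0.74 for SPC25 and 0.70 for CCNB2. It was −0.75 for CENPF, −0.73 for ESPL1, −0.72 for MKI67 and −0.66 for CENPE. The share of these genes was 14 of 50, against 15.8% of all genes. With the GC and length correction added to the block, 6 of the 14 were still called (HMMR, MAD2L1, NEK2, BIRC5, CENPF and CENPE), and 8 were not. Among those 8, CDK1 went from 0.84 to 0.28, SPC25 from 0.74 to 0.12, CCNB2 from 0.70 to 0.29, ESPL1 from −0.73 to −0.25 and MKI67 from −0.72 to −0.30. NUF2 became 0.41, CCNB1 0.45 and TTK 0.43. The correction was partial, as rho between length and the parental E2 difference over the 50 genes was still 0.30 after it. For MAD2L1 it rests on an assigned transcript among the 10 longest, and which forms are expressed was not tested. Without the block none of the 14 passed, at adjusted p-values of 0.617 or more.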

How the results depend on the processing

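For the E2 effect over 3 lines, 176 genes were called. DESeq2 called 1115, the replicate block 384, the GC and length correction 441 (295 higher and 146 lower, against 141 and 35), both together 1782, the clones alone 49, and fits that left out a library or a clone 56 to 3353. Of the 50 mitosis genes, DESeq2 called 2, the block with the correction 3 and the fits with libraries left out 0 to 12. For the knockout effect, 51 genes were called, 460 by DESeq2, 120 with the correction and 2 to 996 with libraries left out. Of the 50, these called 9, 1 (CDC20) and 0 to 4. The replicate block gave 46 genes there. Without the parental DMSO library, 2 genes were called for the knockout and 56 for E2. Without clone 1 it was 631 and 745, and without clone 2 it was 996 and 3353. No other single library was left out there. For E2 in the clones, 49 genes were called, 310 by DESeq2, 2227 with the replicate block, 3464 with the block and the correction, and 0 to 352 with libraries left out. Of the 50, the block called 2 and the block with the correction 6. For the interaction, 0 genes were called at an adjusted p of 0.05 and 1190 had an unadjusted p under 0.05. DESeq2 called 26, the replicate block 2470, the block with the correction 1783, and fits with libraries left out 0 to 38. Of the 50, the block called 14 and the block with the correction 7. Leaving out a whole clone could not be fitted for the interaction or for the clones alone, as no residual degrees of freedom remain. CDK1 turned from −0.26 to 0.0074 for E2 without the parental line. MKI67 turned from 0.13 to −0.11 for the knockout with the correction, and ran from −0.24 (without the parental DMSO library) through −0.19 (without clone 2) to 0.40 (without clone 1). Scaling by total counts moved the median E2 difference of all genes in the parental line to 0.17, and the 50 genes stood 0.33 below it, with 30 lower in place of 35. It moved the median difference of clone 1 from the parental line in DMSO to −0.29 and that of clone 2 to −0.27, with 31 lower in place of 40. These stood 0.47 and 0.50 below all genes. In windows from 100 bases before the start, the share of promoters with CCAAT was 56.4% (all windows 21.3%). The replicate block changed no call among the 50 for E2 over 3 lines or for the knockout. The cause of these shifts was not tested.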

Other observations

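Neighbouring gene groups of the cell cycle were read in the same fits. The 14 genes listed for the DREAM and MuvB complexes, which repress or activate late cell cycle genes, are not all subunits. These 14 had a median E2 difference of −0.27 in the parental line, with 8 lower and 6 higher. The 30 listed S phase genes, most of which act in DNA replication, had a median of −0.07, with 17 lower and 13 higher. No gene of either list was called without the replicate block in any of the 4 tests. With the block, 3 of 14 DREAM and MuvB genes had a more positive E2 change in the clones, among them LIN52 at 0.77 (SE 0.22, adjusted p = 0.00702) and LIN9 at 0.77 (SE 0.21, adjusted p = 0.00574), and none a more negative one. Of the 30 S phase genes, 5 were more positive and 2 more negative. Over all genes these shares were 8.9% more positive and 6.92% more negative. With the GC and length correction added, 3 of the DREAM and MuvB genes were more positive. Of the S phase genes 2 were then more positive and 1 more negative, against 6.18% and 5.24% of all genes. The values that follow are without that correction. PCNA, the sliding clamp of DNA polymerase, had 0.89 (SE 0.26, adjusted p = 0.00784) and GINS2, part of the replicative helicase, 0.85 (SE 0.22, adjusted p = 0.00316). UHRF1, which maintains DNA methylation, had −0.96 (SE 0.25, adjusted p = 0.00353), and the histone chaperone gene CHAF1A −0.63 (SE 0.23, adjusted p = 0.0402). UHRF1 also rose in E2 within the clones, by 0.73 (SE 0.15, adjusted p = 3.54e-05). The blocked interaction was called for 15.8% of all genes, and for 11.4% with the correction.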
